A study of Homo sapiens with 6 samples.

Results

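The EGF family ligands and ERBB receptors were examined as 10 genes, the receptors EGFR, ERBB2, ERBB3 and ERBB4 and the ligands EGF, TGFA, AREG, EREG, BTC and HBEGF. They were chosen by name, with earlier results of these data known. All 10 were found among the 23228 genes of the count tables. After low counts were filtered, 9 of the 10 remained among the 14537 genes tested, and TGFA did not pass. The libraries came from Hep3B, a human hepatocellular carcinoma line grown in RPMI medium. The 3 control libraries were from cells transduced with a non-targeting shRNA by lentivirus. The 3 libraries labelled PELP1-KD were from cells transduced with an shRNA against PELP1, a nuclear coregulator of steroid receptors and other transcription factors. Both kinds of cell were cultured alike, and PELP1-KD cells were puromycin-selected stable clones used as a pool. The titles name only the first of the PELP1 shRNAs that the protocol lists. No label says that the replicates were separate cultures, so the p-values measure only the spread between these libraries, which may be technical. The values analysed here are of RNA, by RNA-seq. The study also assessed proteins and phosphorylation by Western blotting, PELP1 among them. It reported a lower PELP1 protein level in PELP1-KD Hep3B cells. These protein data are not analysed here.

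ERBB receptors are receptor tyrosine kinases that pair at the cell surface when a ligand binds, phosphorylate each other and recruit adaptors that pass the signal to RAS, ERK and PI3K. ERBB2 has no known ligand of its own and acts as a partner, and ERBB3 has a weak kinase and binds the PI3K regulatory subunit when phosphorylated. EGF family ligands are made as membrane proteins and released by shedding proteases such as ADAM17, and in liver this family is known for its part in hepatocyte growth and regeneration.

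Each control library held 32945954 to 34456542 reads on genes, and each PELP1-KD library 26758363 to 31535892. PELP1 was checked first. It had 5338, 5127 and 5349 reads in controls 1 to 3 against 4318, 4135 and 4846 in their PELP1-KD counterparts, which is 158 ± 3.67 against 149 ± 7.57 TMM-scaled CPM (reads per 1000000, SD, n = 3 each). No PELP1-KD library reached the level of the lowest control library, but the gap was small. The log2 fold change was -0.08 with an SE of 0.04 and a 95% interval from -0.17 to 0.00, and it did not pass the test (edgeR quasi-likelihood test, Benjamini-Hochberg adjusted p = 0.101). It passed with the replicate number as a block (adjusted p = 0.0106) and without PELP1-KD replicate 3 (adjusted p = 0.0179). The 3 libraries labelled PELP1-KD therefore had PELP1 RNA at 94.5% of the control mean, and the label is used as a name throughout. All 11 hepatocyte markers listed had at least 10 reads in every library, and their summed level was 28924 to 29361 CPM in control and 25487 to 25974 CPM in PELP1-KD libraries. All 11 passed the test, 3 higher and 8 lower. Albumin, ALB, which made up the largest part of the sum, was at 11057 against 7232 CPM and AFP, alpha-fetoprotein, at 4501 against 6939 CPM in the group means. Of 10 leukocyte, endothelial and stromal markers, 6 had at most 5 reads in every library, among them PTPRC, CD3E and VWF, and CDH5 was at 0 in all 6 libraries. The sum of these 10 markers was 22.8 to 24.2 CPM in control and 25.8 to 27.5 CPM in PELP1-KD libraries, most of it from LUM, CD14 and PDGFRB. These 3 moved in different directions, with log2 fold changes of 0.92 for LUM, -0.98 for CD14 and -2.13 for PDGFRB, all past the test. The part of these shifts in the results that follow was not tested.

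Of the 9 members tested, 7 passed the test at an adjusted p below 0.05, against a background of 53.6% of all genes tested. Of these 5 were higher and 2 lower in PELP1-KD libraries, beside 26.8% and 26.7% of all genes. With the replicate number as a block 8 passed, against 60.7% of all genes. EGFR and ERBB2 rose, ERBB4 fell from an already very low level, and ERBB3 did not pass. Among ligands EGF, BTC and AREG rose, EREG fell, and HBEGF did not pass. The AREG groups overlapped, and its call was lost under 5 of 12 alternative settings. The share of members called was 77.8%, with so many genes called in this comparison that a call alone sets no member apart. Values of the groups did not overlap for 7 of the 9, against 58.8% of all genes. A change of at least 2-fold was called for 2 of the 9, EGF and ERBB4, against 7.64% of all genes. ERBB4 had at least 10 reads only in control libraries, so it entered these counts through the group where it was higher. With at least 10 reads required in every library ERBB4 dropped out, and 6 members were called beside 7415 of 13766 genes. The members' median log2 fold change was 0.36, beside 0.00 for all genes. Since the members were chosen with earlier results of these data known, these comparisons with all genes are a description only. In bulk RNA, fewer cells with a transcript and less of it per cell cannot be told apart.

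**Figure D1:**
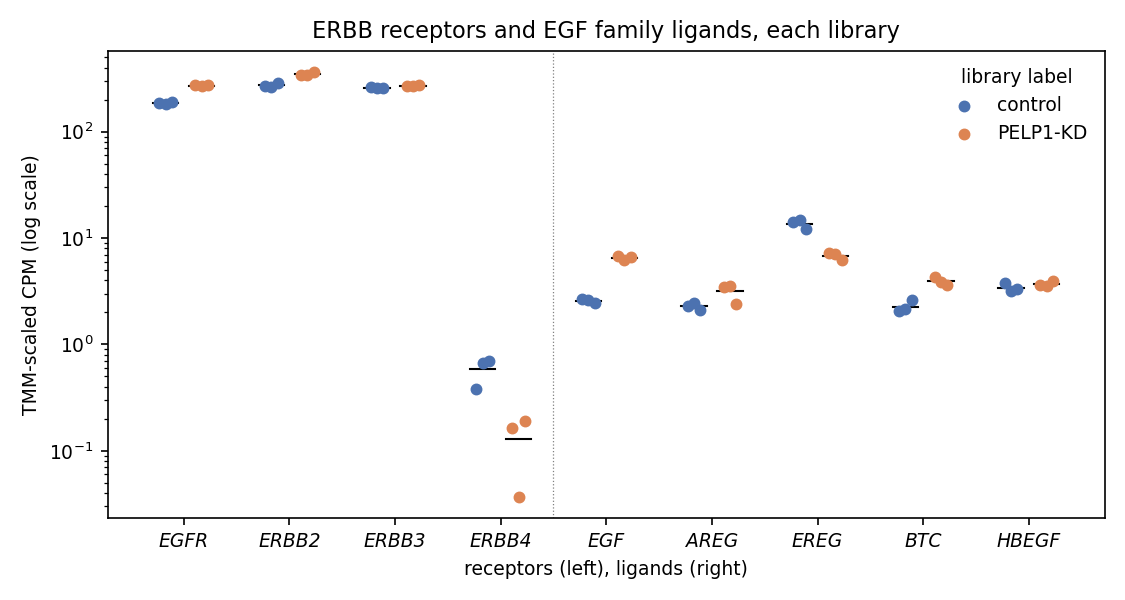
TMM-scaled CPM on a log axis for each of the 3 control and 3 PELP1-KD libraries (points) with group means (bars), for the 4 receptors and 5 ligands tested. EGFR, ERBB2 and ERBB3 lie above 180 CPM in every library and every ligand lies below 15 CPM, while ERBB4 is below 1 CPM.

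The windows around the start sites of the receptor that rose most and of the 4 ligands that passed the test are shown first. A link between the windows and the direction of change was not tested. Each window runs from 250 bases before to 50 bases after the start site, 5′ to 3′ on the gene's strand, from RefSeq on GRCh38.p14. Of the 10 members, 9 had at least 1 window, and ERBB3 did not. Capitals mark matches, on either strand, to the motifs searched, which were the TATA box as TATAAA, the CCAAT box by its own letters, the GC box as GGGCGG, the AP-1 site as TGANTCA, the core of the cAMP response element as TGACGT, the E-box as CACGTG and the EGR core as GCGTGGG.
EGFR, chr7:55018767-55019066, plus strand: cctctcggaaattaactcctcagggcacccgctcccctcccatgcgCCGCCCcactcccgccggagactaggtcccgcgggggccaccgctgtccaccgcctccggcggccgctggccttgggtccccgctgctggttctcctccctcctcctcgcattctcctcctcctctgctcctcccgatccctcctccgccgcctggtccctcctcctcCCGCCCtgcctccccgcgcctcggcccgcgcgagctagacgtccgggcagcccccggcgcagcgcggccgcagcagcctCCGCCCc
EGF, chr4:109912633-109912932, plus strand: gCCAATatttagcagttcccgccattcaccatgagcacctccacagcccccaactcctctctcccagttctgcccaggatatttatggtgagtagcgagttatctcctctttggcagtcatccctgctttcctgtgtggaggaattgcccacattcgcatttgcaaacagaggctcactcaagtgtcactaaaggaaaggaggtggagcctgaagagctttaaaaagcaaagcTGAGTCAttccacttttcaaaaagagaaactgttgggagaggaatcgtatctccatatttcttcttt
AREG, chr4:74444886-74445185, plus strand: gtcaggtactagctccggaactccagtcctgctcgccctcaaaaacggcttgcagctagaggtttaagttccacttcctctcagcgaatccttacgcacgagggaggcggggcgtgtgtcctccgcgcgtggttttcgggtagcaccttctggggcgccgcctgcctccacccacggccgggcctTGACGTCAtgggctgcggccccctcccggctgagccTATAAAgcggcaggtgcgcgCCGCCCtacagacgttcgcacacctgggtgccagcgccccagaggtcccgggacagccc
EREG, chr4:74364895-74365194, plus strand: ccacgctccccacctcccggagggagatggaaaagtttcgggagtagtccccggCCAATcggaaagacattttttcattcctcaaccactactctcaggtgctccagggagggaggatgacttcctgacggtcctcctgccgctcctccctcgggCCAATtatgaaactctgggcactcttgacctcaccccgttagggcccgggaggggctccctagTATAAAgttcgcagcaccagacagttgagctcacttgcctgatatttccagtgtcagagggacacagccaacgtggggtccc
BTC, chr4:74794474-74794773, minus strand: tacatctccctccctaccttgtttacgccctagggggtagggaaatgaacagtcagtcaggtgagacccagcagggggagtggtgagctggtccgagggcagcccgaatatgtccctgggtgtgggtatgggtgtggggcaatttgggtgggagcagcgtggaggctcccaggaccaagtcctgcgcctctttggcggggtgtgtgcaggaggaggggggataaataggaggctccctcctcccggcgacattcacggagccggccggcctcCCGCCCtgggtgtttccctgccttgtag

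EGFR had 2 windows in the table, and the upstream one is printed. It held 75.3% G and C and 3 GC box matches but no TATA box match. The other, chr7:55109589-55109888 on the plus strand, held 42.0% G and C, 2 TATA box matches and 2 AP-1 matches, and the reads here are not divided between the start sites. The BTC window held 63.0% G and C with 1 GC box match. The EREG and AREG windows each held a TATA box match, beginning 32 and 29 bases before the start site. EREG also had 2 CCAAT box matches, whereas AREG had a GC box match and a pair of overlapping cAMP response element cores, at 65 and 63 bases before the start on opposite strands. The EGF window was the poorest in G and C of the 5, at 46.7%, and held an AP-1 match that begins 17 bases before the start site and a CCAAT box match near its far end. Over all 35116 RefSeq windows of this length the median G and C content was 58.7%, and 11.5% held a TATA box match, 34.6% a CCAAT box, 45.0% a GC box, 7.71% an AP-1 site and 7.98% the cAMP response element core. The E-box and the EGR core, found in 7.26% and 6.98% of all windows, were in none of the windows of the 9 members. These matches describe the letters of the windows and are not measured binding.

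The receptors were the abundant side of the family. EGFR, the receptor of EGF itself and of AREG, BTC, EREG, HBEGF and TGFA (chr7:55086725-55275031, plus strand, hg19, 6571 exon bases), was at 186, 181 and 190.1 CPM in the control and 272, 267 and 274 CPM in the PELP1-KD libraries. All 3 PELP1-KD values lay above all control values, with a narrow spread in both groups. Its mean rose from 186 ± 4.46 to 271 ± 3.73 CPM, 146% of control, a log2 fold change of 0.54 with an SE of 0.03 (adjusted p = 7.96e-11, edgeR).

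ERBB2, the partner receptor without a ligand (chr17:37844393-37884915, plus strand, 5127 exon bases), was at 271, 261 and 284 CPM in the control and 340.2, 339.7 and 364 CPM in the PELP1-KD libraries. The groups did not overlap, though the third library of each was the highest of its group. The log2 fold change was 0.36 with an SE of 0.04 (edgeR adjusted p = 1.92e-07), a rise to 128% of control.

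ERBB3, a neuregulin receptor that signals mainly through its partners (chr12:56473809-56497291, plus strand, 6193 exon bases), was at 260.5, 257 and 259 CPM in the control and 270.3, 267 and 272 CPM in the PELP1-KD libraries. The PELP1-KD values were all higher, by a small margin. The log2 fold change of 0.06 had a 95% interval from -0.01 to 0.13 and did not pass (edgeR adjusted p = 0.124), but with the replicate block it did (adjusted p = 0.0215).

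ERBB4, a receptor for neuregulins, BTC and HBEGF (chr2:212240442-213403352, minus strand, 11923 exon bases), had 13, 22 and 23 reads in the control and 5, 1 and 6 in the PELP1-KD libraries. Every control library had more reads than any PELP1-KD library, but all were near the lower limit of the assay. The log2 fold change was -2.08 with an SE of 0.47 (edgeR adjusted p = 0.00101). The summed reads were 58 and 12, a PELP1-KD to control ratio of 0.232 with a 95% counting interval from 0.114 to 0.437 that covers counting error only.

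**Figure D2:**
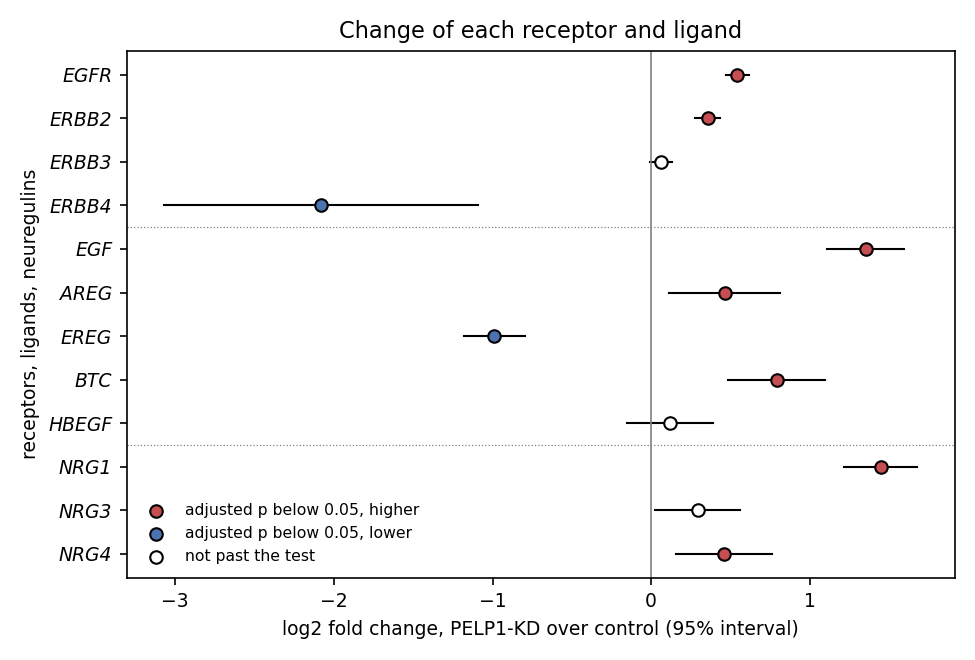
Log2 fold change of PELP1-KD over control libraries with its 95% interval (edgeR, 3 against 3), for the receptors, the EGF family ligands and the neuregulins tested. Filled points passed an adjusted p of 0.05, and the intervals of ERBB3 and HBEGF cross 0.

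Per kilobase of exon, the order of the receptors was the same in both groups. In control libraries ERBB2 was at 53.0 ± 2.31 RPKM (TMM-scaled reads per kilobase per 1000000 reads), ERBB3 at 41.8 ± 0.283, EGFR at 28.3 ± 0.679 and ERBB4 at 0.0489 ± 0.0148 RPKM. In PELP1-KD libraries ERBB2 was at 67.9 ± 2.75, ERBB3 at 43.6 ± 0.451, EGFR at 41.2 ± 0.568 and ERBB4 at 0.0109 ± 0.00686 RPKM. No neighbours in either order overlapped, and EGFR had come close to ERBB3. EGFR and ERBB3 stood at an EGFR to ERBB3 read ratio of 0.715, 0.705 and 0.734 in the control and 1.01, 0.999 and 1.01 in the PELP1-KD libraries.

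As a share of the summed receptor RPKM, EGFR went from 23.0% ± 0.0408 to 27.0% ± 0.377 and ERBB3 from 33.9% ± 0.754 to 28.5% ± 0.421, in each case with no overlap between groups. The share of ERBB2 was 43.1% ± 0.79 and 44.5% ± 0.79, and its values overlapped. For the shares that did not overlap, the exact two-sided permutation test over the 6 libraries gave p = 0.1, the smallest that 3 against 3 can give, so no share could pass 0.05.

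EREG, epiregulin, was the most abundant ligand in control libraries and the only ligand of the 6 that fell past the test. This low-affinity ligand of EGFR and ERBB4 (chr4:75230860-75254477, plus strand, 4628 exon bases) had 482, 481 and 397 reads in the control and 224, 189 and 197 in the PELP1-KD libraries. The lowest control library stayed well above the highest PELP1-KD library. Its level was 13.6 ± 1.37 against 6.86 ± 0.536 CPM, 50.5% of control, with a log2 fold change of -0.99 and an SE of 0.09 (edgeR adjusted p = 2.61e-08).

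EGF, the founding ligand of the family (chr4:110834040-110934118, plus strand, 5583 exon bases), had 92, 85 and 80 reads in the control and 209, 168 and 209 in the PELP1-KD libraries. Among the 6 EGF family ligands it had the largest rise, and the groups were far apart. The mean went from 2.57 ± 0.129 to 6.56 ± 0.294 CPM, a log2 fold change of 1.35 with an SE of 0.12 (edgeR adjusted p = 6.80e-09).

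BTC, betacellulin, which binds EGFR and ERBB4 (chr4:75671448-75719882, minus strand, 1323 exon bases), had 71, 70 and 86 reads in the control and 131, 105 and 114 in the PELP1-KD libraries. The groups did not overlap. The mean rose from 2.27 ± 0.295 to 3.93 ± 0.323 CPM, a log2 fold change of 0.79 with an SE of 0.15 (edgeR adjusted p = 0.000127).

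AREG, amphiregulin, an EGFR ligand, had 79, 80 and 69 reads in the control and 107, 96 and 76 in the PELP1-KD libraries. PELP1-KD replicate 3 fell within the range of the control libraries, and the other two lay above it. The log2 fold change was 0.46 with an SE of 0.17 and a 95% interval from 0.12 to 0.81 (edgeR adjusted p = 0.0248). The call was lost with DESeq2 (adjusted p = 0.0571), without control replicate 1 (0.0516) or control replicate 3 (0.0828), and without PELP1-KD replicate 1 (0.0963) or PELP1-KD replicate 2 (0.112). The AREG row of the tables covers 2 copies on chromosome 4 of hg19, chr4:75310853-75320726 and chr4:75480629-75490485, both on the plus strand. On GRCh37 the exons of the copies differed at 1 of 1238 bases, and reads that fit several places were kept and shared, so that the row holds the reads of both copies.

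HBEGF, heparin-binding EGF-like growth factor, a ligand of EGFR and ERBB4 (chr5:139712428-139726188, minus strand, 2358 exon bases), had 129, 104 and 110 reads in the control and 111, 96 and 125 in the PELP1-KD libraries. After scaling the groups overlapped, at 3.42 ± 0.305 and 3.72 ± 0.222 CPM. The log2 fold change of 0.12 had a 95% interval from -0.15 to 0.39 (edgeR adjusted p = 0.461). TGFA, transforming growth factor alpha (chr2:70674417-70781105, minus strand, 4263 exon bases), had 1 read in each control library and 0, 0 and 1 in the PELP1-KD libraries. A count of 0 allows up to 3 reads, or 0.0977 and 0.111 CPM in PELP1-KD replicates 1 and 2, so TGFA was below what this depth can compare.

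Per kilobase of exon, the order of the ligands changed between groups. The exon length used first counts both near-identical AREG copies, 2476 bases. AREG therefore stands lower in these orders than with the 1238 bases of 1 copy. In control libraries EREG led at 2.94 ± 0.296 RPKM, with no overlap with BTC at 1.72 ± 0.223. BTC and HBEGF, at 1.45 ± 0.129, overlapped. AREG at 0.921 ± 0.0703 and EGF at 0.46 ± 0.0232 RPKM followed in that order without overlap. In PELP1-KD libraries BTC led at 2.97 ± 0.244 RPKM without overlap with the next. HBEGF at 1.58 ± 0.0943, EREG at 1.48 ± 0.116, AREG at 1.27 ± 0.259 and EGF at 1.18 ± 0.0526 RPKM each overlapped with its neighbour. Dividing AREG by the length of 1 copy puts it at 1.84 ± 0.141 RPKM in control and 2.55 ± 0.518 RPKM in PELP1-KD libraries, second in both orders and overlapping BTC in both.

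EREG made up 39.1% ± 3.08 of the summed ligand RPKM in control and 17.5% ± 0.393 in PELP1-KD libraries. The share of BTC went from 23.0% ± 3.59 to 35.0% ± 0.862 and that of EGF from 6.14% ± 0.169 to 13.9% ± 0.968. None of these 3 shares overlapped between groups (exact two-sided permutation p = 0.1). In shares of reads not divided by length, BTC went from 9.47% to 16.2% and EGF from 10.6% to 27.1%, so which of the pair gained more percentage points depends on the scale. AREG and HBEGF overlapped, at 12.3% ± 0.688 and 15.0% ± 2.39 and at 19.4% ± 1.61 and 18.7% ± 2.20. The HBEGF difference changed sign with the scale, -0.703 percentage points by RPKM and 1.20 by reads, and AREG shares did not overlap by reads. The read ratio of EGF to EREG was 0.191, 0.177 and 0.202 in the control and 0.933, 0.889 and 1.06 in the PELP1-KD libraries, so that EGF reads had come near EREG reads.

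**Figure D3:**
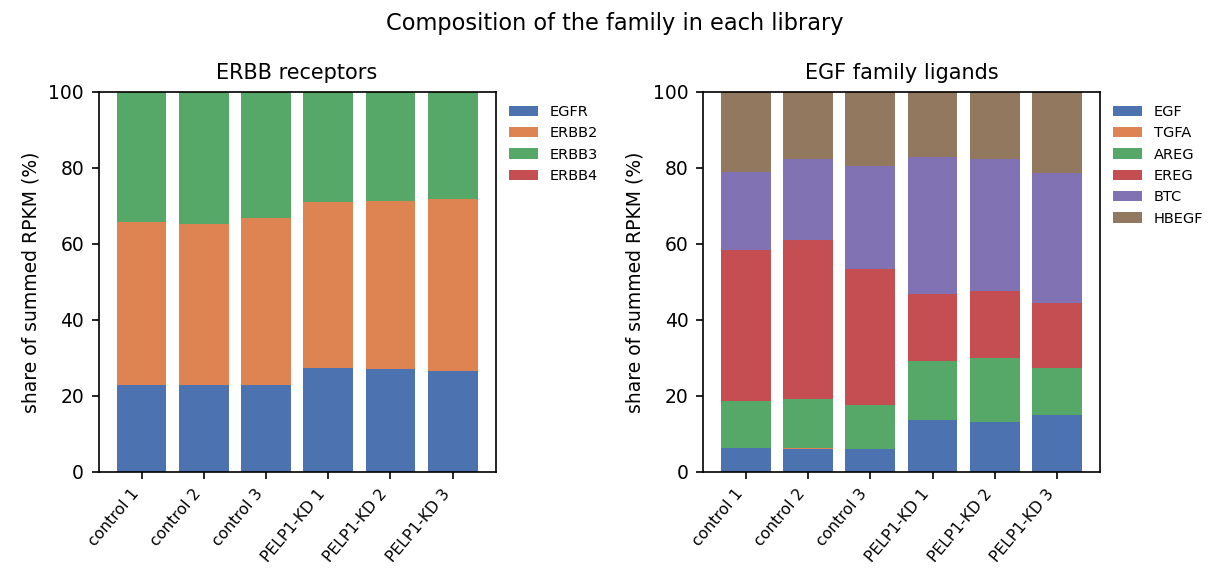
Share of the summed RPKM of the receptors (left) and of the ligands (right) held by each gene, as stacked bars for each library. AREG is divided by the length of both copies. The EREG segment shrinks from a mean of 39.1% to 17.5% while the BTC and EGF segments grow, and the receptor bars change less.

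AREG, EREG and BTC lie in a ligand cluster on chromosome 4 with EPGN, epigen, which had 1 read in the 6 libraries together. Of the genes tested within 300 kb of these 3 ligands, CXCL2, a neutrophil chemokine, rose by a log2 fold change of 0.23 (edgeR adjusted p = 0.00137) and PARM1 by 1.22 (adjusted p = 3.43e-09). MTHFD2L, a mitochondrial folate enzyme, was at 0.05 (adjusted p = 0.769). The genes of the cluster thus did not share a direction: EREG fell between neighbours that rose or did not pass.

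The other ligands of ERBB receptors are the neuregulins NRG1 to NRG4, which bind ERBB3 or ERBB4, and EPGN. For this and the following lists, the counts stand beside 26.8% of all genes called higher and 26.7% called lower, and no list was tested against other genes or lists. Of the 5 ligands listed here 3 were tested, 2 rose and none fell, while NRG2 had 1 read in all. NRG1 had 104, 101 and 108 reads in the control and 264, 207 and 292 in the PELP1-KD libraries. Its groups were far apart with no overlap, and it rose by a log2 fold change of 1.45 with an SE of 0.11 (edgeR adjusted p = 1.11e-09). NRG4 rose from 2.48 ± 0.279 to 3.40 ± 0.2 CPM, a log2 fold change of 0.46 (adjusted p = 0.0112). NRG3 was at 0.29 and did not pass (adjusted p = 0.0608).

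Shedding proteases and their regulators were the next group, with 14 genes listed and 12 tested, of which 2 rose, 4 fell and 6 did not pass. ADAM17, the main sheddase of AREG, EREG, HBEGF and TGFA, was at 37.3 ± 0.592 and 39.1 ± 0.35 CPM, and ADAM10, the main sheddase of EGF and BTC, at 167 ± 3.64 and 158 ± 6.97 CPM. Neither passed (edgeR adjusted p = 0.237 and 0.127). TIMP3, the tissue inhibitor that acts on ADAM17, rose from 106 ± 4.74 to 181 ± 4.05 CPM, a log2 fold change of 0.77 (adjusted p = 4.42e-12), and FURIN, the convertase that removes the prodomain of ADAM proteases, rose by 0.19 (adjusted p = 7.65e-05). ADAM19 fell by 1.20 on the log2 scale and ADAM15 fell by 0.25 on the same scale (adjusted p = 0.000114 and 0.000364).

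Of 24 adaptors and proximal enzymes, which dock on phosphorylated receptors, 23 were tested, 7 rose, 7 fell and 9 did not pass. SOS1, the exchange factor that loads RAS with GTP, rose from 55.8 ± 0.595 to 155 ± 9.33 CPM, a log2 fold change of 1.47 (edgeR adjusted p = 1.23e-15), and the kinase SRC rose by 0.34 (adjusted p = 7.87e-06). PIK3R2, a regulatory subunit of PI3K, fell from 226 ± 6.11 to 151 ± 6.47 CPM, a log2 fold change of -0.58 (adjusted p = 2.06e-10). SHC1, an adaptor that links receptors to GRB2, had a log2 fold change of -0.44 (adjusted p = 4.90e-09). GRB2 itself, at 184 ± 3.33 and 175 ± 0.912 CPM, did not pass (adjusted p = 0.0823).

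Of 25 negative regulators and trafficking genes, all tested, 11 rose, 4 fell and 10 did not pass. The leucine-rich repeat proteins of the LRIG family moved in different directions: LRIG3 rose by a log2 fold change of 0.41 (edgeR adjusted p = 2.58e-08), whereas LRIG1, which promotes degradation of ERBB receptors, was at 32.4 ± 0.623 and 22.6 ± 0.57 CPM, a log2 fold change of -0.52 (adjusted p = 1.22e-07). RAB11FIP1, an endosome recycling protein, rose by 0.29 (adjusted p = 3.09e-06), and the kinase TNK2 was at -0.44 (adjusted p = 4.53e-05). ERRFI1, the inhibitor that binds the EGFR kinase, was at 0.05 and did not pass (adjusted p = 0.241).

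Of 14 genes of the RAS to ERK cascade, 3 were higher, 1 was lower and 10 did not pass the test, a share of 28.6% called beside 53.6% of all genes. The difference between these shares was not tested. KSR1, a scaffold of the cascade, rose from 11.4 ± 0.696 to 20.2 ± 1.36 CPM, a log2 fold change of 0.83 (edgeR adjusted p = 1.48e-08). The kinase BRAF rose by 0.28 and MAPK3, which encodes ERK1, had a log2 fold change of -0.19 (adjusted p = 0.000729 and 0.00508). KSR2, singled out after its values were seen, had the largest log2 fold change of the list at 1.66. The list held 1 call of at least 2-fold. KSR2 had only 5, 5 and 12 reads in the control and 25, 7 and 31 in the PELP1-KD libraries, which overlap. It reached 10 reads only in control replicate 3 and PELP1-KD replicates 1 and 3. KSR2 thus entered these counts mostly through the group where it was higher.

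Of 15 feedback and output genes that are known to follow ERK activity, 13 were tested, 5 rose, 7 fell and 1 did not pass. EGR1, an immediate early transcription factor, had 894, 818 and 754 reads in the control and 136, 127 and 146 in the PELP1-KD libraries. Its groups were the farthest apart of the list, with a log2 fold change of -2.42 and an SE of 0.08 (edgeR adjusted p = 5.14e-15). DUSP6, the cytoplasmic ERK phosphatase, fell from 37.2 ± 1.01 to 23.3 ± 0.906 CPM, a log2 fold change of -0.67 (adjusted p = 3.01e-09). The nuclear phosphatases DUSP4 and DUSP5 rose by 0.49 and 0.20 on the log2 scale (adjusted p = 1.77e-07 and 0.0120), the latter with overlapping values. Over the 6 lists, 53 of 90 genes tested passed, 30 higher and 23 lower, a share of 58.9% beside the background of 53.6%, and the median log2 fold change was -0.01.

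**Figure D4:**
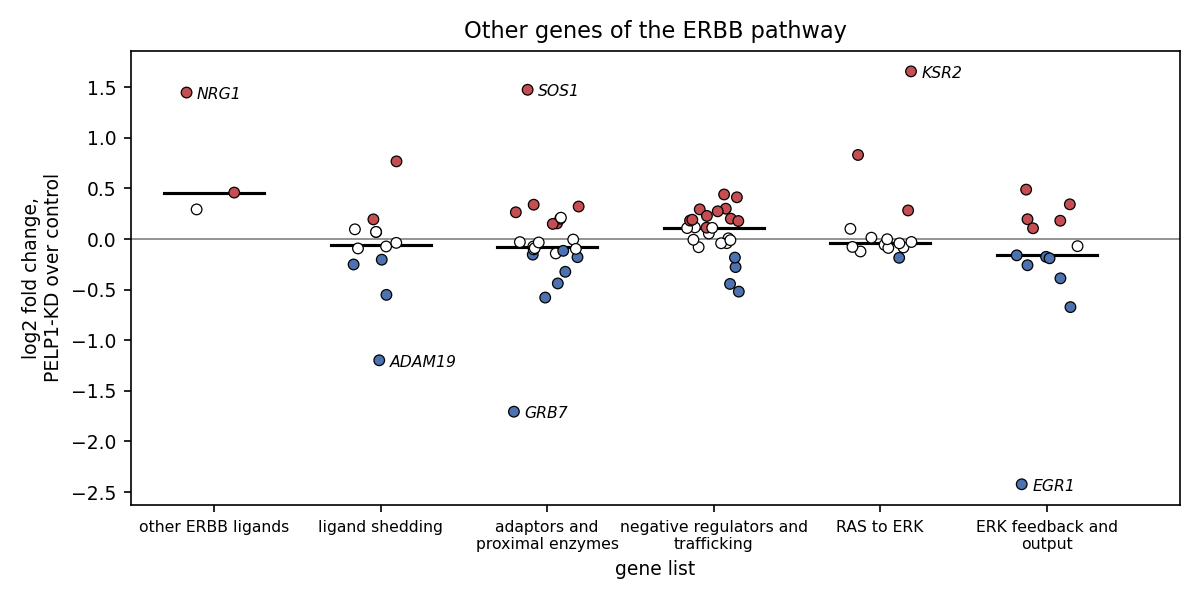
Log2 fold change of PELP1-KD over control for the tested genes of the 6 lists (points, filled where the adjusted p is below 0.05, red higher and blue lower, with the list median as a bar). Points beyond 2-fold are named, and the list medians run from -0.16 for ERK feedback and output to 0.46 for the other ERBB ligands.

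As a description of likeness over the 6 libraries, the genes with the highest Pearson correlation to EGFR in log2 CPM, among 11777 genes with a mean of at least 100 reads, were HAVCR1, TOMM22 and TTN, each with r above 0.99. Their log2 fold changes were 0.67, 0.17 and 1.43. For EGF the closest genes were PARP14, SVIL and LRP2, also above 0.99, with log2 fold changes of 1.12, 0.72 and 0.51. Such likeness was common, with 381 genes at r of at least 0.99 to EGFR and 327 to EGF, and all of these values rest on the same 6 libraries and 1 contrast.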

How the data were processed

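RNA from 3 control and 3 PELP1-KD Hep3B libraries was sequenced. The sources differ on RNA extraction, on mRNA selection against ribosomal RNA removal and on single or paired reads, and the study's methods name TopHat2 where the submitters' processing notes list HISAT2. The authors deposited 1 table of estimated counts per library, made with featureCounts 1.5.0-p1 on hg19 per the file headers, with strand used and with reads that fit several places or genes kept and shared as fractions. Rounding to whole numbers changed 10.6% to 13.3% of a library's values.

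Genes were filtered with filterByExpr and tested with edgeR 4.0.16 (TMM, quasi-likelihood, no block, R 4.3.3) at a Benjamini-Hochberg adjusted p of 0.05, after the scripts were tested on simulated data. The common biological coefficient of variation was 4.04%, and the median SE of a log2 fold change was 0.06. RPKM used the exon length of the tables, which for AREG counts both copies. DESeq2 1.42.0, other scalings and filters, the replicate block and leaving out each library were alternatives. Replicate numbers come from the titles. Deviations of same-numbered libraries from their group means correlated at 0.336, 0.247 and 0.665 over 6369 genes. However, control replicate 2 correlated more with PELP1-KD replicate 1, at 0.417. PELP1-KD replicate 2 correlated about equally with control replicates 1 and 2, at 0.244 and 0.247. The numbers therefore set apart only the replicate 3 libraries, and whether replicates 1 and 2 pair by number is not known. No pair of replicates agreed within sampling noise (chi-square per degree of freedom 1.94 to 7.02).

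Members and gene lists were chosen with earlier results of these data known. Genes named are all members, PELP1, in each list the 2 called genes of smallest p in each direction, tested neighbours of the ligand cluster and ERBB2, and the 3 genes most like EGFR and EGF. A further few (sheddases, GRB2, ERRFI1, NRG3) were added for their role, and KSR2 for its fold change after its values were seen.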

Additional observations from a re-analysis of the deposited data

How the results depend on the processing

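EGFR, ERBB2, ERBB4, EGF, EREG and BTC kept their direction and their call under every alternative that gave a value, with log2 fold changes from 0.52 to 0.56, 0.32 to 0.39, -2.44 to -1.69, 1.32 to 1.39, -1.06 to -0.92 and 0.73 to 0.90. HBEGF stayed outside the threshold, from 0.07 to 0.19. AREG ranged from 0.37 to 0.63, with adjusted p from 0.00162 to 0.112, and lost its call under 5 alternatives. Between 6 and 8 members and 6036 to 8826 of all genes were called, and scalings moved the median of all genes by less than 0.01.

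With the replicate block, which treats libraries of the same number as pairs, 8 members and 8826 genes (60.7%) were called. Such pairing stood out only for the replicate 3 libraries. PELP1 passed in the fit with the block at a log2 fold change of -0.083 (edgeR adjusted p = 0.0106). ERBB3 passed as well, and no other member's call changed. Leaving out each library in turn put PELP1 between -0.10 and -0.040.

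The PELP1-KD minus control difference in RPKM share was 4.03 percentage points for EGFR, 7.75 for EGF, -21.7 for EREG and 12.02 for BTC. In shares of reads not divided by length, where long genes weigh more, it was 4.56, 16.5, -27.9 and 6.73 points. With the AREG length of 1 copy, chosen after seeing the data, the difference for EGF was 6.63 points. A sum of AREG with AREGB was not run, since the tables used here have no row of that name, and ERBB4 gave no value with at least 10 reads required in every library. Depth limits ERBB4 and TGFA, and 3 libraries a group limit every share.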

Other observations

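ERBB2 lies on chromosome 17 in a segment with GRB7, an adaptor that binds phosphorylated ERBB receptors and is often amplified together with ERBB2 in tumors. GRB7 had 258, 232 and 234 reads in the control and 60, 47 and 91 in the PELP1-KD libraries, with no overlap. Its log2 fold change was -1.71 with an SE of 0.14 (edgeR adjusted p = 5.12e-09), opposite in sign to that of ERBB2 at 0.36. Of the other genes tested within 100 kb of ERBB2, PGAP3 was at -0.20 (adjusted p = 0.0287), STARD3 at 0.11 (adjusted p = 0.0949) and C17orf37 at 0.01 (adjusted p = 0.904). The row of MIR4728, which lies inside ERBB2 and shares 5 exon bases with it, was at 0.36, and its reads cannot be told apart from those of ERBB2 transcripts.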
